A study of Mus musculus with 18 samples.

Results

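Transcripts of the epidermal growth factor (EGF) ligand family and its receptors were followed through a tape-stripping time course in mouse epidermis with and without the aryl hydrocarbon receptor (AhR). The set was chosen by name, with earlier results of these data known. It held 10 genes: the ligands Hbegf, Areg, Ereg, Tgfa, Epgn and Btc, the neuregulin Nrg1, and the receptors Egfr, Erbb2 and Erbb3. Of these, 9 had a row that names only that gene, and Ereg had 2, so the set takes up 10 rows of the 33793 in the table and 9 of the 22180 genes they name. Areg was not analysed here. Arrays were read for epidermal sheets from shaved back skin of female mice on a B6;129 background. The knockout animals (KO, AhR-/-) came from the line B6.129-AhRtm1Bra/J, in which every cell lacks AhR, and the wild-type animals (WT, AhR+/+) were their littermates. Skin was taken unstressed (0 h), or 6 h or 24 h after Tegaderm film had been applied and pulled off 5 times, with 3 arrays for each genotype at each time, 18 in all. Ages were not given, and the lines with AhR deleted only in keratinocytes or Langerhans cells, which the labels also name, were not used in these arrays.

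EGF family ligands are made as membrane proteins whose outer part is cut free by ADAM proteases and then binds a receptor tyrosine kinase on the same or a neighbouring cell. EGFR binds amphiregulin, TGF-alpha and epigen, while HB-EGF, epiregulin and betacellulin bind ERBB4 as well; neuregulin 1 binds ERBB3 and ERBB4. ERBB2 has no ligand of its own and ERBB3 has little kinase activity, so both act in pairs with other receptors. In skin, EGFR signalling keeps keratinocytes dividing, holds back their differentiation and drives their migration into wounds. AhR is a transcription factor that is activated by small molecules and binds DNA at sites with the core GCGTG.

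The deposited values are logarithms, read here as log2, and each row had been centred on its median over the 18 arrays. They therefore give differences between arrays and no level of a gene, so the epidermal identity of the sheets could not be assessed from marker levels, and no gene's level is set against another's. Array medians lay from -0.019 to 0.011. Ahr was lower in each KO array than in each WT array of the same time, with differences of -0.32, -1.11 and -0.70 at 0, 6 and 24 h, of which the 6 h one passed (adjusted p = 0.00549). In KO at 0 h, Ahr read -0.13, 0.040 and -0.016, above all KO arrays at 6 h (-0.77 to -0.63) and 24 h (-0.74 to -0.59). These KO 0 h arrays, to which the later KO arrays are compared, overlapped the WT arrays at 24 h (-0.011, 0.12 and 0.011). The reason was not tested. The Ahr row may read sequence outside the deleted part of the gene. Each sample also carries a 4-digit number of unstated meaning. Of the 12 arrays at 0 h and 6 h, 7 have a number below 3000, namely KO replicate 1 and WT replicates 2 and 3 at 0 h and replicates 2 and 3 of both genotypes at 6 h, and the other 5 and all 6 arrays at 24 h have a number of 3000 or more. Values within these number classes are given for some of the member results, and not for single pathway genes or markers.

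Differences were tested with limma over all 23521 rows that name 1 gene, and a row passed at a Benjamini-Hochberg adjusted p under 0.05. The changes that passed lay in KO skin after stripping and in the 6 h comparison of the genotypes. From 0 h to 24 h in KO, 4 of the 9 measured members passed, Nrg1 and Hbegf upward and Btc and Ereg downward, where 9.56% of all rows passed, 3.09% upward and 6.47% downward. From 0 h to 6 h in KO, 2 members passed, Nrg1 upward and Erbb3 downward, against 4.98% of all rows (1.57% upward, 3.41% downward). Between genotypes at 6 h, Erbb3 and Erbb2 were lower in KO, which makes 2 members where 2.18% of all rows passed (0.366% higher, 1.82% lower). The 6 h response itself differed between genotypes for 1 member, Nrg1, where 0.731% of all rows did. Comparisons from 0 h share the 0 h arrays of their genotype, so they are not independent of each other. The members were chosen with earlier results of these data known, so their counts are no independent evidence. Because the tissue is a mixture, fewer cells of a type and less RNA per cell cannot be told apart in any of these values.

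In WT skin, limma passed 0 of the 9 members from 0 h to 6 h, where 0% of rows passed, and 0 members had an unadjusted p under 0.05, as 4.62% of rows did. It passed 0 from 0 h to 24 h, where 0.0298% of rows passed, and Hbegf and Egfr had an unadjusted p under 0.05, as 12.5% of rows did. Between genotypes in unstressed skin 0 members and 0.0978% of rows passed, and Nrg1 and Epgn had an unadjusted p under 0.05 (8.48% of rows). Between genotypes at 24 h 0 members and 0.0170% of rows passed, and Nrg1, Ereg and Tgfa had such a p (6.71% of rows). From 6 h to 24 h, 0 members passed in WT (0% of rows) and 4 had an unadjusted p under 0.05 (7.79% of rows). In KO that count was 0 (1.24% of rows) with 3 such members (13.8% of rows). The difference between genotypes in the 24 h response passed for 0 members and 0% of rows, with Nrg1 as the 1 member under an unadjusted p of 0.05 (9.20% of rows). KO minus WT averaged over the 3 times passed for 0 members and 0.374% of rows, with 4 such members, Ereg, Tgfa, Erbb2 and Erbb3 (12.3% of rows). In the comparisons with calls, the members with an unadjusted p under 0.05 numbered 5 between genotypes at 6 h (15.8% of rows), 6 from 0 h to 6 h in KO (20.7%), 5 from 0 h to 24 h in KO (22.9%) and 5 for the difference in the 6 h response (13.1%).

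Nrg1, Epgn, Btc and Ereg were also the members that varied most. Their SD over the 18 arrays stood at the 99.8, 99.6, 99.5 and 99.4 percentile of all rows. Hbegf stood at 93.1, Erbb3 at 91.4, Erbb2 at 89.1, Egfr at 88.2 and Tgfa at 86.1. All 9 measured members thus varied more than most rows, and the ligand genes more than the receptor genes with the exception of Tgfa.

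**Figure D1:**
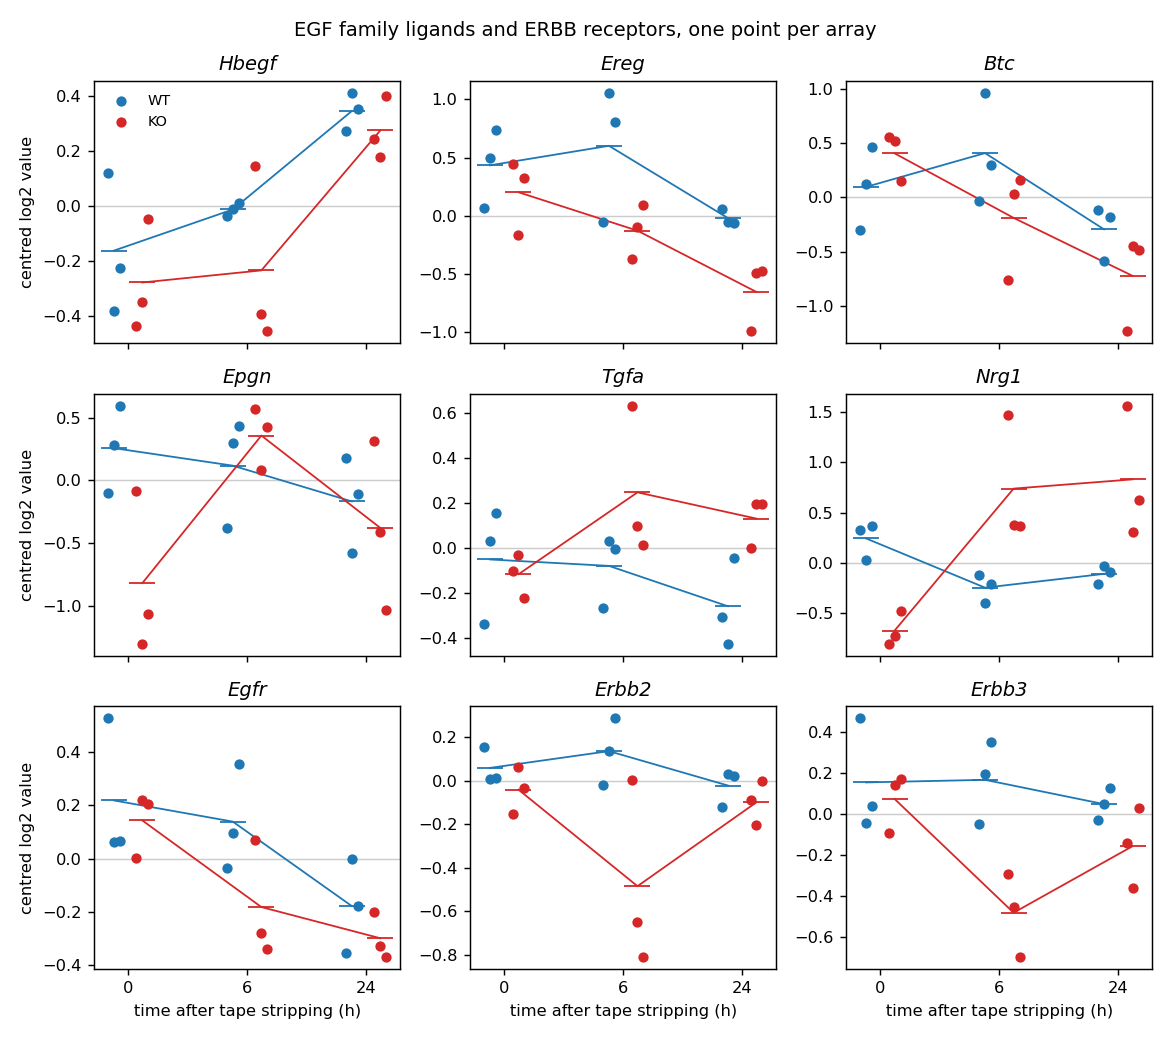
Centred log2 value of each measured member (y axis) in every array, by hours after tape stripping (x axis, the 3 times evenly spaced), 1 panel per gene with its own y range. Blue points are WT arrays, red points are KO arrays, and the short bars, joined by lines, are means of the 3 arrays. Nrg1 is the panel in which the 3 KO arrays start below and end above all WT arrays of the same time.

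Nrg1, which encodes the ligand of ERBB3 and ERBB4, rose in KO skin after stripping, while no change in WT passed. At 0 h it lay at 0.33, 0.031 and 0.37 in the WT arrays and at -0.81, -0.73 and -0.48 in the KO arrays. At 6 h the WT arrays read -0.12, -0.40 and -0.21 and the KO arrays 1.47, 0.38 and 0.37. At 24 h the WT arrays read -0.21, -0.031 and -0.086 and the KO arrays 1.56, 0.30 and 0.63. The KO arrays were thus all below the WT arrays before stripping and all above them at both later times, with KO replicate 1 standing well above the other KO arrays at 6 h and again at 24 h; these are different animals. In KO, Nrg1 rose by 1.41 log2 (SE 0.291, 2.66-fold, adjusted p = 0.0164) from 0 h to 6 h and by 1.5 (SE 0.291, 2.83-fold, adjusted p = 0.00603) from 0 h to 24 h. In WT its means were 0.24 ± 0.19, -0.25 ± 0.14 and -0.11 ± 0.092 (SD, n = 3) at the 3 times, and neither change passed.

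The 6 h response of Nrg1 was 1.90 log2 higher in KO than in WT (SE 0.411, 95% interval 1.02 to 2.78, adjusted p = 0.0487). The 24 h response differed by nearly as much, 1.86 (95% interval 0.98 to 2.73), but did not pass (adjusted p = 0.219). KO minus WT was -0.92 in unstressed skin, 0.98 at 6 h and 0.94 at 24 h, with adjusted p of 0.337, 0.0933 and 0.594, so none of these passed. The 24 h rise in KO passed in each of 15 other ways of running the test, with adjusted p from 0.00188 to 0.0274, and measured 1.14 without KO 24 h replicate 1. The 6 h rise lost its call without KO 0 h replicate 2 (adjusted p = 0.0676) and measured 1.05 without KO 6 h replicate 1. The difference between genotypes in the 6 h response stood near the threshold. It was lost when any of 10 of the 12 arrays at 0 h and 6 h was left out (adjusted p from 0.0533 to 0.138), and kept without WT 0 h replicate 1 (0.0400) or WT 6 h replicate 1 (0.0423). Within the arrays numbered below 3000 it was 1.69 (adjusted p = 0.0399, 0.842% of rows passing) and within the others 2.53 (adjusted p = 0.422, 0% of rows passing). The 6 h rise in KO was 1.18 in the first class (adjusted p = 0.0996, 0.00425% of rows passing) and 2.08 in the second (adjusted p = 0.0365, 4.15% of rows passing). These class values rest on single arrays, each assumed to vary like the other groups. In the first class this is KO 0 h replicate 1. In the second it is KO 6 h replicate 1, the highest of its group. The response difference there also rests on WT 0 h replicate 1 and WT 6 h replicate 1 alone.

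Hbegf encodes HB-EGF, a ligand that keratinocytes make at wound edges. At 0 h the WT arrays read 0.12, -0.38 and -0.22 and the KO arrays -0.44, -0.35 and -0.046. At 24 h they read 0.27, 0.41 and 0.35 in WT and 0.24, 0.18 and 0.40 in KO. In both genotypes all 24 h arrays were above all 0 h arrays, and the genotypes overlapped at each time. The KO increase of 0.55 (SE 0.15, 1.47-fold) passed with an adjusted p of 0.0310. The WT difference of 0.51 did not (adjusted p = 0.162), and among arrays numbered from 3000 up, with 1 WT array at 0 h, it was 0.22 (adjusted p = 0.471). The KO difference in that class was 0.47 (adjusted p = 0.0285). The 2 responses differed by 0.05 with a 95% interval from -0.41 to 0.50 (adjusted p = 0.979), and its sign changed with the normalization. At 6 h Hbegf was at -0.034, -0.011 and 0.011 in WT and at 0.15, -0.39 and -0.46 in KO, and the KO mean of -0.23 there was close to the 0 h mean of -0.28. The KO call was lost when KO 0 h replicate 1 or 2 or any 24 h KO array was left out (adjusted p from 0.0525 to 0.106).

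Ereg and Btc, which encode epiregulin and betacellulin, ended lowest in stressed KO skin. At 0 h Ereg read 0.065, 0.50 and 0.73 in WT and 0.45, -0.17 and 0.32 in KO. At 6 h it read -0.057, 1.06 and 0.80 in WT and -0.38, -0.10 and 0.087 in KO. At 24 h the WT arrays stood at 0.055, -0.055 and -0.065 and the KO arrays at -1.0, -0.50 and -0.48. All 3 KO arrays at 24 h were thus below every other array of this row. From 0 h to 24 h in KO, Ereg fell by 0.86 (SE 0.255, 1.81-fold, adjusted p = 0.0472). KO minus WT was -0.73 at 6 h and -0.64 at 24 h, with adjusted p of 0.158 and 0.688. The second row of Ereg followed the first (r = 0.851 over 18 arrays), but its KO arrays at 24 h reached -0.21, above the lowest 0 h array of either genotype. Its 24 h difference in KO was -0.53 and did not pass (adjusted p = 0.130). The call on the first row was also lost without KO 0 h replicate 1 or 3 or any of the KO 24 h arrays (adjusted p from 0.0705 to 0.175). The same held after quantile normalization (adjusted p = 0.117), with all rows tested (0.0611) and with robust variances (0.0505).

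Btc lay at -0.30, 0.13 and 0.47 in WT and at 0.55, 0.52 and 0.15 in KO at 0 h. At 6 h it lay at -0.033, 0.96 and 0.30 in WT and at -0.76, 0.033 and 0.16 in KO. At 24 h the WT arrays read -0.11, -0.58 and -0.18 and the KO arrays -1.24, -0.45 and -0.49. KO arrays at 24 h lay below all KO arrays at 0 h, while the 2 genotypes overlapped at every time. Btc fell by 1.13 (SE 0.297, 2.19-fold, adjusted p = 0.0271) from 0 h to 24 h in KO, and its WT means were 0.097 ± 0.38, 0.41 ± 0.51 and -0.29 ± 0.25 (SD, n = 3) at the 3 times. The call was lost without KO 0 h replicate 1 (adjusted p = 0.0755), KO 0 h replicate 2 (0.0876) or KO 24 h replicate 1 (0.120), and the fall measured 0.87 without the last of these. Quantile normalization also lost it (adjusted p = 0.0563).

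The gene start of Btc is shown because it holds the AhR core motif more often than that of any other member with a window in the RefSeq promoter table, which covers 6 of the 10 members. The window runs on the minus strand of GRCm38.p6, chr5:91402965-91403244, from 250 bases before to 30 bases after the gene start, with each GCGTG on the printed strand in capitals.
Btc: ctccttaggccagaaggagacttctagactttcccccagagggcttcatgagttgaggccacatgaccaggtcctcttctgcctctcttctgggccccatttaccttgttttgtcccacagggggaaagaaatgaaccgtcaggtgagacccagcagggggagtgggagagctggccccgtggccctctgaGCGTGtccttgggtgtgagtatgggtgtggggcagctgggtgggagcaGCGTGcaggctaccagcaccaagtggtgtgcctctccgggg
The capitals begin 58 and 10 bases before the gene start. GCGTG was searched on both strands and was present in 30.8% of 32851 such windows of all genes, and a match is only a match of letters. Tgfa and Erbb2 had 1 match each, and Epgn, Egfr and the unmeasured Areg had 0.

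Epgn and Tgfa varied between arrays, and none of their differences over all 18 arrays passed. Epgn, which encodes epigen, lay at -0.10, 0.28 and 0.60 in WT and at -0.083, -1.31 and -1.07 in KO at 0 h. At 6 h it lay at -0.38, 0.30 and 0.44 in WT and at 0.57, 0.083 and 0.42 in KO. At 24 h the WT arrays read 0.18, -0.58 and -0.11 and the KO arrays 0.31, -0.41 and -1.04. KO replicates 2 and 3 at 0 h and KO replicate 3 at 24 h were the 3 lowest arrays. The 6 h minus 0 h difference in KO was 1.18 (SE 0.358, adjusted p = 0.0716) and the KO minus WT difference at 0 h was -1.08 (SE 0.358, adjusted p = 0.371). The KO difference from 0 h to 6 h was 0.34 among arrays numbered below 3000 and 1.76 among the others (adjusted p = 0.482 and 0.0928), and it was 1.55 and passed without KO 0 h replicate 1 (adjusted p = 0.0278). Tgfa, which encodes TGF-alpha, read -0.34, 0.031 and 0.16 in WT and -0.100, -0.029 and -0.22 in KO at 0 h. At 6 h it read -0.27, 0.032 and -0.0021 in WT and 0.63, 0.097 and 0.013 in KO. At 24 h all 3 KO arrays (0.0021, 0.20 and 0.19) lay above the WT arrays (-0.30, -0.43 and -0.044), a difference of 0.39 that did not pass (adjusted p = 0.688). Tgfa differed by 0.36 from 0 h to 6 h in KO (adjusted p = 0.206), by 0.15 among arrays numbered below 3000 (adjusted p = 0.553) and by 0.76 among the others, where it passed (adjusted p = 0.0466) with KO 6 h replicate 1 as the only array at 6 h.

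Among the receptors, the KO and WT arrays separated most at 6 h. Erbb3, the neuregulin receptor, lay at -0.047, 0.20 and 0.35 in WT and at -0.29, -0.45 and -0.70 in KO at 6 h. At 0 h it had lain at 0.47, -0.044 and 0.040 in WT and at -0.091, 0.14 and 0.17 in KO. At 24 h the WT arrays read -0.030, 0.049 and 0.13 and the KO arrays -0.14, -0.36 and 0.030. Only at 6 h did the genotypes not overlap, with all KO arrays low. Erbb3 was 0.65 log2 lower in KO than in WT at 6 h (SE 0.146, 1.57-fold), and the difference of -0.65 passed with an adjusted p of 0.0355. Within KO it fell by 0.56 from 0 h to 6 h (SE 0.146, adjusted p = 0.0412).

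Erbb2, the receptor without a ligand of its own, lay at -0.018, 0.14 and 0.29 in WT and at 0.0032, -0.65 and -0.81 in KO at 6 h. KO replicate 1 sat among the WT arrays there, and replicates 2 and 3 were the lowest of all 18 arrays. At 0 h Erbb2 lay between 0.010 and 0.16 in WT and between -0.15 and 0.063 in KO. At 24 h it lay between -0.12 and 0.033 in WT and between -0.20 and -0.0032 in KO. The KO minus WT difference at 6 h was -0.62 (SE 0.153, 1.54-fold, adjusted p = 0.0487), close to the threshold. It passed in 5 of 16 other ways of running the test. The call was lost after quantile normalization (adjusted p = 0.0617) or a shift of arrays to one median (0.0521). It was also lost with all rows tested (0.0662) or robust variances (0.0531).

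Egfr, the receptor of most ligands in the set, read 0.53, 0.064 and 0.065 in WT and 0.0026, 0.22 and 0.21 in KO at 0 h. At 6 h it read -0.036, 0.096 and 0.36 in WT and 0.071, -0.28 and -0.34 in KO. At 24 h the WT arrays read -0.35, -0.0026 and -0.18 and the KO arrays -0.20, -0.33 and -0.37. In both genotypes every 24 h array was below every 0 h array, and no comparison of Egfr over all 18 arrays passed. The 24 h minus 0 h difference was -0.40 in WT (SE 0.143, adjusted p = 0.252) and -0.44 in KO (SE 0.143, adjusted p = 0.0674). Among the arrays numbered from 3000 up, the WT difference was -0.71 and passed (adjusted p = 0.0482, 1.66% of rows passing), with 1 array at 0 h whose spread is taken from the other groups. The KO difference passed in 4 of 15 alternatives (adjusted p from 0.0206 to 0.195), among them the number class as a block (-0.51, adjusted p = 0.0268).

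The 6 h differences of the receptors between genotypes moved with the label number. Within the arrays numbered below 3000 (2 per genotype), KO minus WT at 6 h was -0.94 for Erbb2, -0.85 for Erbb3 and -0.54 for Egfr. Ereg at -0.94, Hbegf at -0.42 and Nrg1 at 0.68 also passed there, which makes 6 of 9 members where 7.06% of all rows passed. Within the arrays numbered from 3000 up there is 1 array per genotype at 6 h, each assumed to vary like the other groups in that class. The differences there were 0.021 for Erbb2, -0.25 for Erbb3 and 0.11 for Egfr, and 0 members and 0% of rows passed. Egfr and Erbb2 of KO 6 h replicate 1 thus lay within the range of the WT arrays, and those of KO 6 h replicates 2 and 3 lay below it. With the number class as a block over all arrays, both calls held at the same size (Erbb2 -0.62, adjusted p = 0.0336; Erbb3 -0.65, adjusted p = 0.0284). At 6 h each class holds equal numbers of arrays of both genotypes, so that block leaves the difference itself as it is. What the number stands for was not tested. The 6 h calls for both receptors between genotypes were lost when KO 6 h replicate 2 or 3 or WT 6 h replicate 2 or 3 was left out, with adjusted p from 0.140 to 0.204 for Erbb2 and from 0.0817 to 0.169 for Erbb3. The fall of Erbb3 within KO lost its call without replicate 2 or 3 of either KO 0 h or KO 6 h. The adjusted p then ran from 0.0877 to 0.148. It was also lost with the number class as a block (-0.50, adjusted p = 0.0620) and with the replicate number as a block (0.0639). Within the classes the difference was -0.48 below 3000, with 1 KO array at 0 h, and -0.45 from 3000 up, with 1 KO array at 6 h. From 0 h to 24 h in KO, among arrays numbered from 3000 up, Nrg1 (1.44), Hbegf (0.47), Btc (-1.06), Ereg (-0.74) and Egfr (-0.51) passed, 5 of 9 members where 10.8% of rows passed.

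The window of Erbb2 is shown as the only receptor window that holds the AhR core motif. It runs on the plus strand of GRCm38.p6, chr11:98412234-98412513, with GCGTG in capitals.
Erbb2: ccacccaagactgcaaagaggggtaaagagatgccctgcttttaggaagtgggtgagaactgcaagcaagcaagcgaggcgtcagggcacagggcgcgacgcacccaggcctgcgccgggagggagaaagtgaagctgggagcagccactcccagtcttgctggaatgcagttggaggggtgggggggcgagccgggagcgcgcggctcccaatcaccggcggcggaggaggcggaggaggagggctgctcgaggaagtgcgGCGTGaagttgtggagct
The match begins 13 bases after the gene start. No measured member with a window held the AP-1 motif TGANTCA (7.46% of windows), the cyclic AMP response element TGACGTCA (1.74%), the E-box CACGTG (6.79%) or a CArG box (1.56%).

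**Figure D2:**
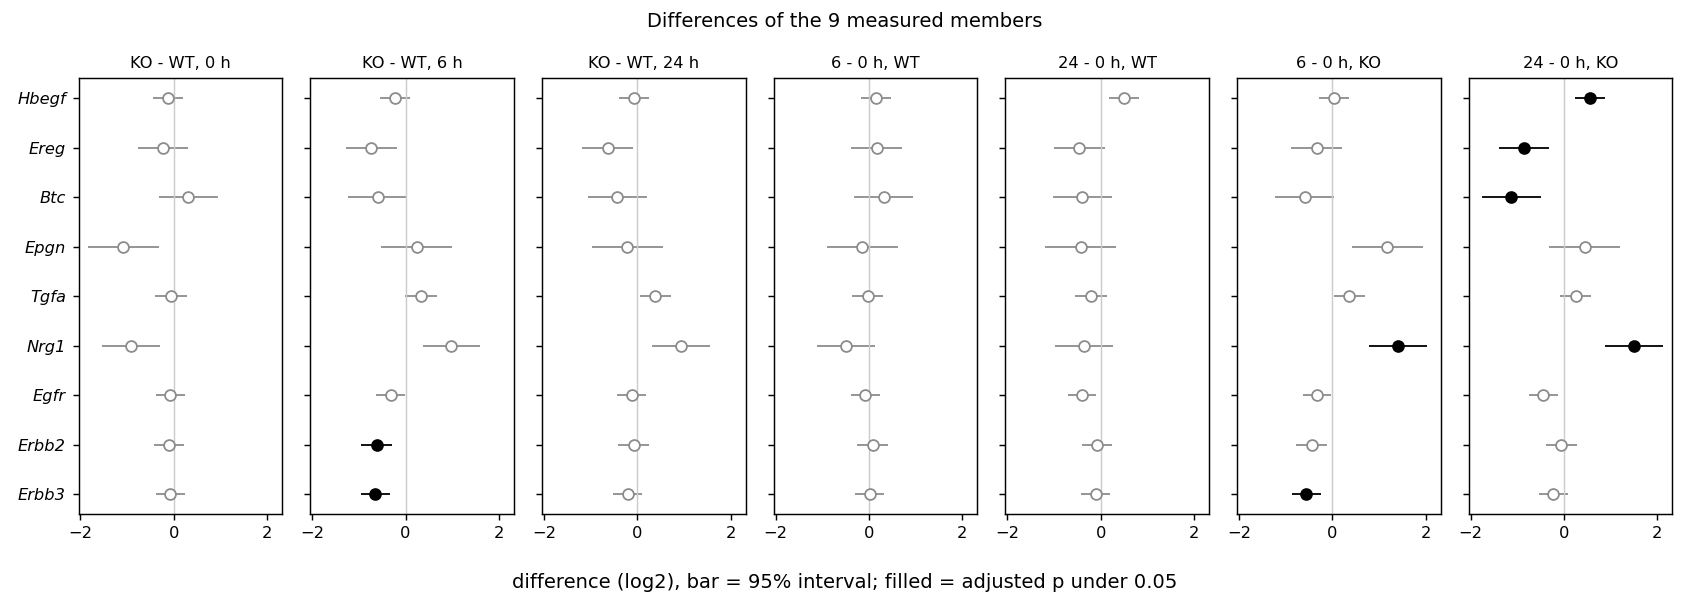
Difference in log2 (x axis) for each measured member (y axis) in 7 comparisons, 1 panel per comparison, with bars for the 95% interval from limma. Filled points passed at an adjusted p under 0.05. The KO panels hold all changes over time that passed, with Nrg1 at 1.41 and 1.5 and Btc at -1.13.

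Groups that did not overlap were counted beside the tests. Between 0 h and 24 h the KO arrays separated for 6 of 9 members (29.5% of rows) and the WT arrays for 4 of 9 (17.7% of rows). From 0 h to 6 h the counts were 4 in KO (24.5% of rows) and 1 in WT (9.26% of rows), the latter Nrg1. Between genotypes, 1 member separated at 0 h (Nrg1, 13.7% of rows), 2 at 6 h (Nrg1 and Erbb3, 17.7% of rows) and 3 at 24 h (Nrg1, Ereg and Tgfa, 12.9% of rows). The median over the 9 members was -0.32 for KO minus WT at 6 h and -0.35 for 24 h minus 0 h in WT, beside 0.0065 and 0.012 over all rows. For KO minus WT it was -0.10 at 0 h and -0.12 at 24 h. From 0 h to 6 h it was 0.013 in WT and -0.33 in KO, and from 0 h to 24 h in KO it was -0.058. These medians were not taken within the label number classes.

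Several members varied together across the 18 arrays, which share the 6 groups, so these correlations are descriptions. Erbb2 and Erbb3 had r = 0.880, and 0.730 after the group means were removed. Egfr followed Erbb3 (r = 0.725, within groups 0.787). Ereg and Btc had r = 0.848, within groups 0.753. Epgn, Ereg, Areg and Btc are consecutive protein-coding genes on chromosome 5 in the RefSeq gene order of GRCm38.p6, yet Epgn had r = 0.294 with Ereg and 0.015 with Btc. Nrg1 ran opposite to Btc (r = -0.774, within groups -0.768).

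**Figure D3:**
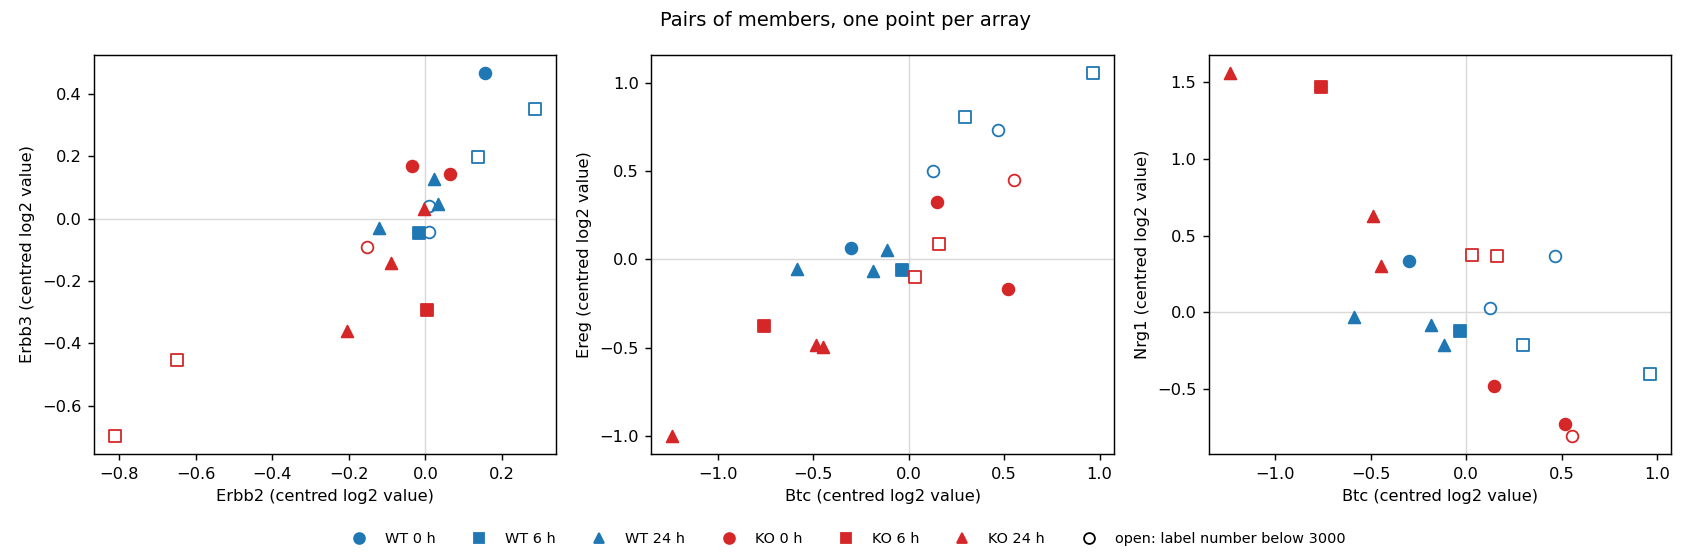
Centred log2 values of 2 members plotted against each other in the 18 arrays, for Erbb2 with Erbb3, Btc with Ereg and Btc with Nrg1. Blue is WT and red is KO, circles, squares and triangles are 0 h, 6 h and 24 h, and open symbols are arrays with a label number below 3000. The Erbb2 and Erbb3 panel shows 2 of the 3 KO arrays at 6 h at the low end of both genes, and Nrg1 falls as Btc rises.

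The genes whose rows ran most like each member over the 18 arrays were named by the highest Pearson r. For Nrg1 they were Pmepa1 (r = 0.914), which encodes an inhibitor of TGF-beta signalling, and Gart (0.912), an enzyme of purine synthesis. For Btc they were Nectin3 (0.932), a cell adhesion molecule, and Lipn (0.919), a lipase of differentiating keratinocytes, and for Ereg they were Spop (0.901) and Plcxd2 (0.895). For Erbb2 they were Pcnx3 (0.947) and Plcg1 (0.937), and for Erbb3 Prkd2 (0.960) and again Plcg1 (0.949), which encodes a phospholipase that docks on activated growth factor receptors. For Egfr they were Herc2 (0.966) and Il6st (0.940), the shared receptor chain of interleukin 6 cytokines. For Epgn they were Srf (0.885) and Actg1 (0.885), serum response factor and a cytoplasmic actin. For Hbegf they were Cers4 (0.859) and Cdc20 (0.843), and for Tgfa Nat8l (0.813) and Rras2 (0.811).

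The machinery around the ligands and receptors was read from 6 gene lists, and counts are over the genes of a list that were analysed here. In WT skin, limma passed 0 genes of any of these lists at 6 h or at 24 h, where 0% and 0.0298% of all rows passed. The lists had between 0 and 4 genes with an unadjusted p under 0.05, as 4.62% of rows had at 6 h and 12.5% at 24 h. Other family genes (5 measured) had 0 that passed in any comparison, the smallest p being that of Nrg2, a second neuregulin, at 0.47 from 6 h to 24 h in KO (adjusted p = 0.0542). Of the 12 genes for ligand release, 1 rose and 3 fell from 0 h to 24 h in KO, beside 3.09% and 6.47% of all rows. Adam8, a protease of activated immune cells and keratinocytes, rose by 0.58 (adjusted p = 0.0121) and by 0.65 at 6 h (adjusted p = 0.0139). Adam17, the main sheddase of TGF-alpha and amphiregulin, fell by 0.58 (adjusted p = 0.0182), Adam10, which releases betacellulin, by 0.49 (0.0193), and Adam9 by 0.47 (0.0139). Rhbdf1, which encodes iRhom1, a partner of ADAM17, was the 1 gene lower in KO than in WT at 6 h, at -0.60 (adjusted p = 0.0487, passing in 5 of 16 alternatives).

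Of 25 feedback regulators, 3 rose and 3 fell from 0 h to 24 h in KO, where 3.09% of all rows rose and 6.47% fell. The ERK phosphatase genes Dusp6 (0.71, adjusted p = 0.0155) and Dusp4 (0.52, 0.0419) and the phosphatase gene Ptpn1 (0.35, 0.0258) rose. Socs4 (-0.48, 0.0225), Lrig2 (-0.56, 0.0498) and Spred1 (-0.40, 0.0472) fell. At 6 h in KO, Dusp6 rose by 0.61 (adjusted p = 0.0458). The 3 genes of the LRIG family, whose first member is a membrane inhibitor that removes EGFR, fell: Lrig1 by 0.63 (0.0171), Lrig3 by 0.82 (0.0172) and Lrig2 by 0.64 (0.0412). Lrig1 was also lower in KO than in WT at 6 h, at -0.55 (adjusted p = 0.0437, passing in 7 of 16 alternatives), and rose by 0.69 from 6 h to 24 h in KO (adjusted p = 0.0207, passing in 7 of 15).

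Of 15 adaptors and kinases of the RAS and ERK arm, 3 fell and 0 rose at each time in KO, where 3.41% of all rows fell by 6 h and 6.47% by 24 h. At 24 h these were Rasa1 (-0.93, adjusted p = 0.00426) and Nf1 (-0.60, 0.0177), which encode proteins that switch RAS off, and the kinase gene Braf (-0.53, 0.0182). At 6 h they were the docking protein genes Gab1 (-0.62, 0.0137) and Gab2 (-0.51, 0.0365) and the kinase gene Araf (-0.40, 0.0374). Of 13 genes of the PI3K, PLC and STAT arm, 5 fell at 6 h in KO (3.41% of all rows fell): Pik3r1 by 0.81 (adjusted p = 0.0107), Pik3r2 by 0.62 (0.00852), Pik3ca by 0.58 (0.0254), Plcg1 by 0.50 (0.0285) and Stat5b by 0.41 (0.0315). At 24 h Pik3r1 (-0.91, 0.00207), Pik3ca (-0.78, 0.00351) and Jak1 (-0.47, 0.0247) fell and Akt1 (0.63, 0.0137) rose. Plcg1 (-0.68, 0.0143), Pik3r2 (-0.63, 0.0112) and Stat5b (-0.49, 0.0262) were the 3 lower in KO than in WT at 6 h, where 1.82% of all rows were lower.

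Of 22 genes commonly induced through ERK, 9 rose and 1 fell from 0 h to 24 h in KO (3.09% and 6.47% of all rows), with a median of 0.25 over the list and 0.024 over all rows. The wound keratin genes led: Krt6b rose by 5.34 (SE 0.794, adjusted p = 0.00204), Krt6a by 3.72 (0.00698) and Krt16 by 3.40 (SE 0.477, 0.00165). Ptgs2, the inducible cyclooxygenase, rose by 1.60 (adjusted p = 0.00862) and the chemokine gene Cxcl1 by 1.13 (0.00444). Itga2, a collagen-binding integrin chain, was the 1 that fell, by 0.76 (0.0073). At 6 h in KO 6 rose (1.57% of all rows) and 1, the immediate early gene Egr1, fell, by 0.59 (0.0230). Between genotypes at 6 h, Krt6b was higher in KO by 3.21 (adjusted p = 0.0499), a call that passed in 2 of 16 alternatives with values from 2.17 to 5.30. Egr1 was lower, at -0.63 (0.0289, passing in 9 of 16). Ptgs2 started lower in KO, at -2.04 at 0 h (adjusted p = 0.0372, passing in 7 of 16 alternatives). The mean over the list at 0 h lay from -0.44 to -0.33 in KO and from -0.15 to 0.093 in WT. At 24 h it lay from 0.33 to 0.62 in KO and from -0.19 to 0.29 in WT. By limma, the difference between genotypes in the 24 h response passed for 0% of all rows. Some of these genes were known to have changed in these samples when the lists were drawn up, so the counts are no independent evidence.

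**Figure D4:**
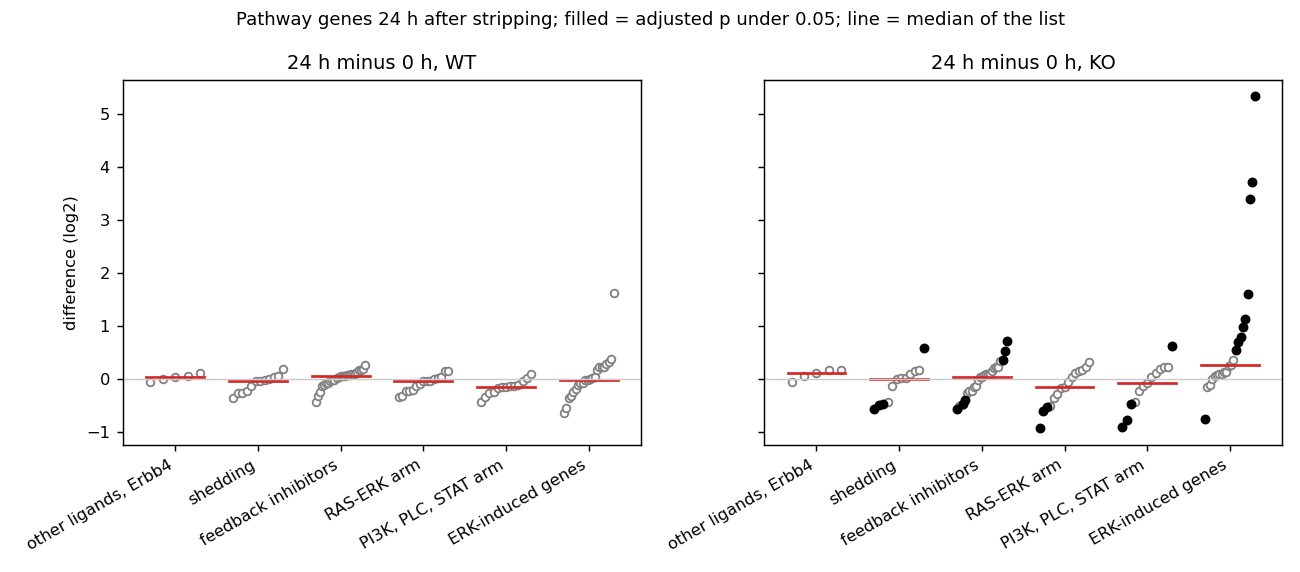
Difference in log2 from 0 h to 24 h (y axis) for each measured gene of the 6 pathway lists (x axis), with WT on the left and KO on the right. Points of a list are ordered by value, black points passed at an adjusted p under 0.05, and red lines are list medians. The WT panel holds no black point (0.0298% of all rows passed there). The KO panel has 9 above 0 among the ERK-induced genes (3.09% of all rows).

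Markers of cell types moved beside some of these results. At 6 h, the mean over 8 suprabasal keratinocyte markers lay from -0.60 to -0.22 in KO and from -0.13 to 0.37 in WT. Beside 1.82% of all rows, 1 of the 8 was lower in KO (Flg2, -0.86, adjusted p = 0.0402), with Dsc1 next at -0.48 (0.0591). The mean over 7 basal markers lay from -0.17 to 0.05 in KO and from 0.09 to 0.20 in WT. Of these 7, beside the same share of rows, 2 were lower in KO (Lamb3, -0.68, adjusted p = 0.0112, and Krt15, -0.61, 0.0339). Of 7 epidermal T cell markers, 3, 4 and 1 were lower in KO at 0 h, 6 h and 24 h (0.0850%, 1.82% and 0.00425% of all rows), with means at 6 h from -0.47 to -0.16 in KO and from 0.49 to 0.74 in WT, led there by Trgv5 (-2.76, adjusted p = 0.00312) and Cd3e (-1.28, 0.0152). From 0 h to 24 h in KO, 4 of 8 suprabasal markers fell and 1 rose, and 2 of 10 neutrophil, monocyte and macrophage markers rose, beside 6.47% of all rows that fell and 3.09% that rose. The suprabasal mean went from between -0.02 and 0.15 to between -0.49 and -0.15, and the myeloid mean from between -0.15 and 0.04 to between 0.09 and 0.44. Of 11 hair follicle markers, 2 fell by 6 h in KO, where 3.41% of all rows fell, and by 24 h 1 fell and 1 rose. Of 7 melanocyte markers, 1 fell by each time. Markers of Langerhans cells, mast cells, Schwann cells, endothelium and dermal fibroblasts had 0 genes that passed by limma between genotypes at any time. The same held between 0 h and either later time in KO. At most 5 genes of a list had an unadjusted p under 0.05. Over all rows, 0.0170% to 9.56% passed in these comparisons and 6.71% to 22.9% had such a p. Which of the markers are near background cannot be read from centred values, and the part of these cells in the changes of Nrg1, Btc, Ereg, Hbegf, Erbb2 and Erbb3 was not tested.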

How the data were processed

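The authors deposited 1 table of 33793 rows by 18 Affymetrix arrays, made from biotin-labelled cDNA of total epidermal RNA per the labels' protocols, with 0 columns of other samples. The deposited values lie between -6.4 and 4.3 and are read as log2, a scale no source used here states; if they are natural logs, all differences printed are too small by one shared factor. In 100% of the rows the median is 0 (within 1e-06), so the rows had been centred. The sources used here do not state background correction, summarisation or normalization. The platform table gave 23521 rows 1 gene symbol, 1814 several and 8458 none, and only the first were tested. Dim rows could not be filtered.

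Groups came from the sample titles. A model with 6 group means was fitted to all 18 arrays with limma 3.58.1 in R 4.3.3 (12 residual and 2.76 prior degrees of freedom), with no array dropped and none imputed, and 12 contrasts were tested 2-sided with Benjamini-Hochberg adjustment over all rows tested. The number of arrays limits the precision: with 3 against 3, a permutation of the arrays for a single gene reaches 0.1 at best. The series text names littermates per time point, and each array was taken as 1 animal. A gene with several rows was read from the row of largest SD. The fit was tested on simulated data. Promoter windows and the gene order are RefSeq's (GRCm38.p6), and motifs were searched on both strands.

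The members and the gene lists were chosen with earlier results of these data known. Pathway genes were named by smallest p, up to 4 per list, markers beside a result by the 2 smallest p, and most alike genes as the 2 of highest r. Krt6a, Itga2, Egr1, Rhbdf1, Lrig2, Dusp4, Ptpn1, Spred1, Gab2, Araf, Stat5b, Jak1 and Akt1 were named outside that rule, after their values were seen. The alternatives were a quantile normalization of the deposited values, a shift to one median, all rows, robust variances, array weights, the replicate number or the label number class as a block, the groups of a comparison alone, and leaving out each array. Fits within the label number classes were added after the data were seen.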

Additional observations from a re-analysis of the deposited data

Results flagged for a closer look

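The genotypes differed in their 6 h response, by limma's test of that difference itself, for 1 of the 9 measured members and 3 pathway genes. Over all rows, 0.731% passed that test. For Nrg1 the KO response was higher by 1.90 log2 (adjusted p = 0.0487), passing in 6 of 22 other ways of running the test and of the same sign in all 22. For the wound keratin gene Krt16 it was higher by 3.50 (adjusted p = 0.0391, passing in 11 of 22). For Pik3r2, a regulatory subunit of PI3K, the response was -0.72 relative to WT (adjusted p = 0.0413, passing in 9 of 22), and for Egr1 it was -0.91 (adjusted p = 0.0454, passing in 6 of 22). For the difference in the 24 h response limma passed 0 of the 9 members and 0% of all rows. Among the members, Nrg1 alone had an unadjusted p under 0.05 there, as 9.20% of rows did. Groups of 3 arrays are too small for a test of single outlying samples.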

How the results depend on the processing

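Of 41 member differences (those with an unadjusted p under 0.05, and the 24 h response difference of Hbegf), 34 kept their sign in every alternative run. For KO minus WT at 6 h, where 2 members passed, the count was 1 with arrays shifted to one median, with all rows tested or with robust variances, 0 with only the groups of the comparison, 6 with only label numbers below 3000 and 0 from 3000 up. For 6 h minus 0 h in KO, where 2 passed, it was 1 with all rows tested or with the number class as a block, 0 with only the groups of the comparison and 0 below 3000. For 24 h minus 0 h in KO, where 4 passed, it was 2 after quantile normalization (1973 of all rows passing, 2249 as reported). For 24 h minus 6 h in KO, where 0 passed, it was 1 with array weights, and for 24 h minus 0 h in WT, where 0 passed, it was 1 from 3000 up. For the difference between genotypes in the 6 h response, where 1 passed, it was 0 with the median shift, all rows, robust variances, only the groups of the comparison, or numbers from 3000 up. Leaving out 1 array gave 0 to 3 for KO minus WT at 6 h, 0 to 3 for 6 h minus 0 h in KO, 1 to 3 for 24 h minus 0 h in KO, 0 to 2 for 24 h minus 6 h in KO, 0 to 1 for the 6 h response difference and 0 to 1 for KO minus WT averaged over time. Counts over all rows moved too. For KO minus WT at 6 h, 513 rows passed as reported. The number was 503 with the median shift, 365 with all rows tested and 455 with robust variances. It was 0 with only the groups of the comparison and 1660 with only label numbers below 3000. The causes were not tested, except that fits on fewer groups or arrays have fewer residual degrees of freedom.

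Reversed signs came from the arrays numbered 3000 up: for KO minus WT at 6 h, Egfr at 0.11 and Erbb2 at 0.021; for 24 h minus 6 h, Ereg in WT at 0.036 and Erbb2 in KO at -0.10; and for the 6 h response difference, Erbb2 at 0.16 and Erbb3 at 0.065. The 24 h response difference of Hbegf was -0.035 after quantile normalization, -0.0021 with array weights, and -0.034, -0.096 and -0.018 without KO 0 h replicate 1, WT 0 h replicate 1 and KO 24 h replicate 3. With the replicate number as a block, the count was 0 for KO minus WT at 6 h, 1 for 6 h minus 0 h in KO and 0 for the 6 h response difference, and no other count of members moved by over 1.5 times. On average, arrays of the same number did not deviate together after the group means were removed (mean r -0.024 over 45 pairs). The mean over 90 pairs of different number was 0.012. Deviations within a group sum to 0, so these 2 means are tied and are no independent comparison. Pairing in only some groups could be missed by such a mean. Single pairs of the same number ran from -0.458 to 0.251, the highest being KO and WT replicate 1 at 6 h. Whether some of them share more than a number was not tested.

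Over all rows, passing counts ran from 0 to 1660 for KO minus WT at 6 h (513 as reported), 1 to 1856 for 6 h minus 0 h in KO (1172) and 1029 to 3070 for 24 h minus 0 h in KO (2249). For KO minus WT at 0 h they ran from 0 to 188 (23), at 24 h from 1 to 9 (4), and for 24 h minus 0 h in WT from 0 to 390 (7). For 24 h minus 6 h in KO they ran from 1 to 842 (292), in WT from 0 to 19 (0), for 6 h minus 0 h in WT from 0 to 6 (0), for the response differences from 0 to 864 at 6 h (172) and 0 to 32 at 24 h (0), and averaged over time from 3 to 322 (88). Of 60 pathway gene differences that passed, 11 passed in every alternative run and 0 changed sign. The 9 ERK output genes that rose in KO by 24 h numbered 7 to 9 across the alternatives. Many other list counts moved more. By 6 h in KO, 1 to 6 ERK output genes rose. Over the same time, 0 to 6 feedback, 0 to 4 RAS and ERK arm and 0 to 5 PI3K, PLC and STAT arm genes fell. By 24 h in KO, 0 to 3 ligand release genes fell, and 0 to 3 feedback genes rose and 0 to 4 fell. Dusp4 passed in 4 of 15 alternatives and Lrig2 and Spred1 in 5 of 15 by 24 h, and Gab2 in 6 of 16 by 6 h. Signal over background, and with it dim rows, could not be assessed from centred values.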
